A study of Gossypium herbaceum with 12 samples.

Results

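The 72 probe sets described here are the membrane transporters, other than aquaporins, among those that the study listed as differing between 2 cotton accessions. They were chosen by their annotation from the 24132 probe sets of the array. The annotation is the best Arabidopsis match in the study's tables, and it had to name a transporter, ATPase, antiporter, symporter, permease, ion channel, MATE efflux protein or exchanger. The tables hold 1712 probe sets in all. Of the 72, 47 were listed for irrigated plants (34 as higher in Vagad and 13 as higher in RAHS-14), 38 for drought plants (22 and 16), and 13 in both conditions. The lists themselves were selected on accession differences in the same plants, so such differences are given below as descriptions wherever the lists used them.

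Affymetrix Cotton Genome arrays were hybridized with leaf RNA of Gossypium herbaceum, a diploid cotton, 1 plant to an array. The groups, of 3 plants each, were Vagad under drought, Vagad irrigated, RAHS-14 under drought and RAHS-14 irrigated. Vagad is the accession labelled tolerant and RAHS-14 the accession labelled sensitive, and as each is 1 accession, its tolerance and its genetic background cannot be told apart. All 12 plants were labelled as one month old and were grown in soil in earthen pots in a temperature-controlled greenhouse. Drought plants had irrigation withheld and received water only in alternate weeks, and irrigated plants were watered daily. Values are log2 signals after quantile normalization, with a floor of 3.37 below which signals are not ordered. Probe sets differ in how brightly they report a transcript, so signals are compared between plants and never between probe sets.

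Transporters move ions and metabolites across the plasma membrane, the vacuolar membrane and the envelopes of plastids and mitochondria. Proton pumps build the gradient that drives most symporters and antiporters, while ABC transporters spend ATP directly on the substance they carry. In leaves, nitrate, ammonium and amino acid carriers handle the nitrogen that arrives from the root and the nitrogen exported to other organs, and plastid carriers exchange sugar phosphates and organic acids between chloroplast and cytosol.

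By the name of the substance carried, the 72 fell into amino acids and peptides (12), metals and other cations (9), nitrate, ammonium and urea (6), phosphate, sulfate and boron (5), nucleotides and nucleobases (5), dicarboxylates (4), sugars and sugar phosphates (3) and protons (3). One of the last, GhiAffx.819.1.S1_at, is annotated only as a subunit of an ATPase complex, so that its place there is uncertain. Another 14 were ABC or MATE efflux proteins and 6 named no substance. The remaining 5 matched the wording of the rule but are not carriers by name, such as AAA-type ATPases and ETHYLENE INSENSITIVE 2, a membrane protein of ethylene signalling. One of the boron transporters, GhiAffx.20514.1.S1_s_at, is also annotated as a water channel and was kept because the rule did not exclude it. A total of 24 probe sets carry a suffix for several matching transcripts of a gene family, 3 for alternative transcripts of a gene and 2 for cross-hybridization, so that related transporters may share their signal. A member was tested if its signal exceeded the array median on 3 or more arrays, which 63 did and 9 did not.

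Arrays 1 and 2 of the Vagad drought group were unlike the other 10. Their median deposited signals were 323 and 346, against 61.3 to 74.7, and their median Spearman correlations with the 10, taken across probe sets, were 0.594 and 0.438, against 0.937 to 0.971 between pairs of the 10. Tag controls, which have no cotton target, read 89.0 and 96.7 on these arrays and 1.36 to 7.43 on the others. The 3'/5' ratio of actin and ubiquitin controls was 1.43 and 0.02 on the log2 scale, against 1.20 to 2.31 on the others. On the mean of the other 10 arrays, 3 of 5 probe sets for leaf functions in the study's tables were above the array median. So were 2 of 4 for other tissues, and these lists did not settle the tissue. Arrays 1 and 2 were not part of this check. Fewer cells of a type and less RNA per cell cannot be told apart in leaf RNA.

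This difference reached the transporters. Between Vagad drought plants, the 63 members differed by a median of 1.42 to 1.99 on the log2 scale, and 38 to 43 of them were at least 2-fold apart. In the other groups, plants differed by a median of 0.105 to 0.204, with 0 to 2 members at least 2-fold apart. Plants 1 and 2 had 9 and 6 of the 63 at the floor, while the other arrays had 0 or 1. Values of these plants are therefore shown apart, and each comparison is given from a fit of 10 arrays, without plants 1 and 2, and from a fit of all 12. In the 10-array fit Vagad under drought is plant 3 alone, and its error is borrowed from the other groups.

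**Figure D1:**
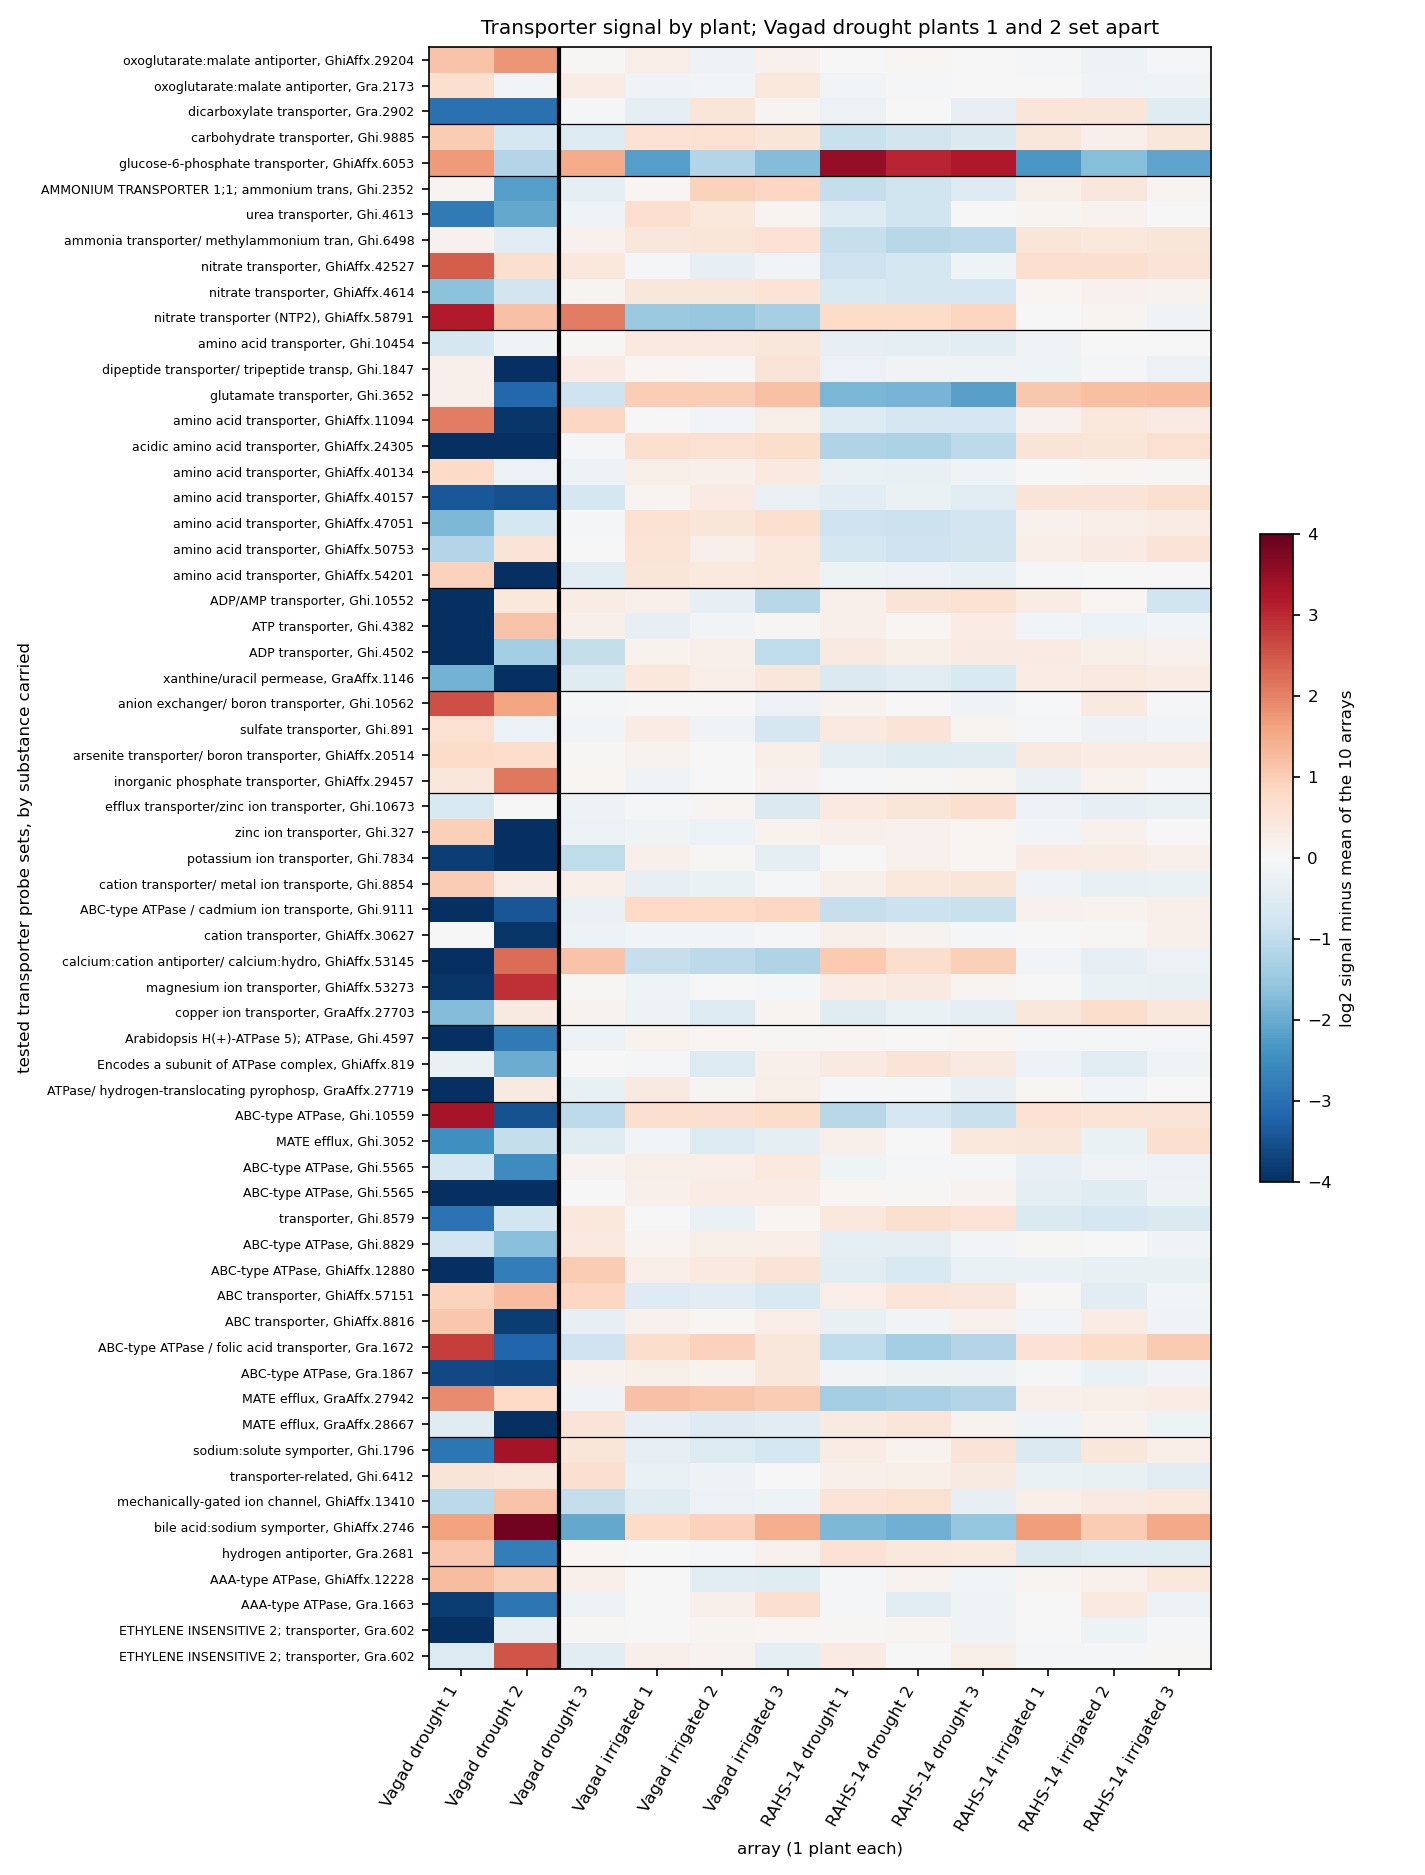
Log2 signal of the 63 tested transporters (rows, by substance carried) on each of the 12 arrays (columns), as the difference from the mean of the 10 arrays, with the colour scale ending at 4 in each direction. Vagad drought plants 1 and 2, left of the vertical line, differed from plant 3 by at least 2-fold in 43 and 38 members, and no such spread appears within the other groups.

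Under drought, RAHS-14 leaves had lower signal from 4 carriers of amino acids and 3 of ammonium or nitrate. Of the latter, AMMONIUM TRANSPORTER 1;1 lay close to the fold threshold. Signal was also lower from ABC and MATE efflux proteins, a bile acid:sodium symporter, a carbohydrate carrier and a cadmium carrier. It was higher from a plastid glucose-6-phosphate transporter, a calcium antiporter and a flavonoid carrier. In the 10-array fit, 3 of the 63 members rose, against 3.49% of all 12883 probe sets tested, and 13 fell, against 4.63% (limma, adjusted p under 0.05 and at least a 2-fold difference). The glucose-6-phosphate transporter was above the array median on drought arrays alone, so its rise is a description. Among the other 62 members, the calcium antiporter and the flavonoid carrier rose. The median log2 difference of the members, drought minus irrigated, was -0.09, and that of all probe sets tested was 0.01. Of the 1371 other probe sets of the study's tables that were tested, 136 rose and 132 fell. The arrays compared are also those that chose the members: of the 13 that fell, 5 were listed as higher in irrigated Vagad, 3 as higher in irrigated RAHS-14, 3 as higher in Vagad under drought and 4 as higher in RAHS-14 under drought, some in both conditions. In the 12-array fit, where the spread of Vagad drought plants 1 and 2 enters the shared error, 1 member rose (0.404% of all probe sets) and 1 fell (0.559%). Leaving out any 1 of the 10 arrays gave 15 to 17 calls.

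The member with the largest rise was a glucose-6-phosphate transporter, GhiAffx.6053.1.S1_s_at, whose Arabidopsis relatives bring glucose-6-phosphate into plastids in exchange for phosphate. Its log2 signals were 9.22, 8.76 and 8.90 in RAHS-14 under drought, against 3.37, 3.99 and 3.60 in irrigated RAHS-14. All 3 drought plants were far above all 3 irrigated plants, one of which was at the floor. The log2 difference was 5.31 ± 0.26 (SE, adjusted p = 2.16e-06 by limma), and it was called in the 12-array fit too (adjusted p = 0.00563). This member was above the array median on drought arrays alone, so it entered the test through the group in which it was high. Its difference and p-values are therefore a description, and it was not tested with a filter of 6 arrays. The other tested sugar carrier, the carbohydrate transporter Ghi.9885.1.A1_at, read 8.80, 8.94 and 9.10 in RAHS-14 under drought and 10.13, 9.88 and 10.13 in irrigated RAHS-14. It fell by 1.10 ± 0.10 (adjusted p = 8.11e-05 by limma), with no overlap between the groups.

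Amino acid and peptide carriers had a negative difference in RAHS-14 in 10 of 10 tested members, with a median of -0.93. Of all 63 members, 36 were negative, and the share over all probe sets is not given here. Past the threshold, 4 of the 10 fell, against 4.63% of all probe sets tested. The 10 were negative under each scaling tried, though 2 to 4 of them were called. The glutamate transporter Ghi.3652.1.S1_s_at, annotated as AMINO ACID TRANSPORTER 1, which carries basic amino acids in Arabidopsis, read 5.19, 5.16 and 4.82 in RAHS-14 under drought, against 8.09, 8.21 and 8.23 in irrigated RAHS-14. Every drought plant was below every irrigated plant, and the difference of -3.12 ± 0.11 was called (adjusted p = 5.28e-07 by limma). The acidic amino acid transporter GhiAffx.24305.2.S1_at read 7.68, 7.63 and 7.83 under drought and 9.41, 9.39 and 9.51 irrigated. It fell by 1.72 ± 0.08 (adjusted p = 1.55e-06), again with the groups apart. Of the amino acid transporter family proteins, GhiAffx.50753.1.A1_at fell by 1.11 ± 0.11 and GhiAffx.47051.1.S1_s_at by 1.05 ± 0.08. The 6 members that were not called had differences of -0.93 to -0.01, the last in the dipeptide and tripeptide transporter Ghi.1847.1.S1_at.

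Against 4.63% of all probe sets tested, 3 of 6 inorganic nitrogen carriers fell. Of these, 2 were called with the authors' scaling, with arrays aligned at their medians and with an offset in place of the floor, and 1 with the quantile target taken from all 12 arrays. The ammonium transporter Ghi.6498.1.S1_s_at read 11.87, 11.70 and 11.76 in RAHS-14 under drought, against 13.30, 13.24 and 13.28 in irrigated RAHS-14. The groups were well separated, and the difference was -1.49 ± 0.07 (adjusted p = 2.25e-06 by limma). It was the member that fell in the 12-array fit as well (adjusted p = 0.0215). The nitrate transporter GhiAffx.42527.1.A1_s_at read 6.93, 7.06 and 7.61 under drought and 8.43, 8.43 and 8.28 irrigated, and it fell by 1.18 ± 0.17 (adjusted p = 0.000752). AMMONIUM TRANSPORTER 1;1, Ghi.2352.1.A1_at, which in Arabidopsis takes up ammonium in roots, read 5.34, 5.49 and 5.77 under drought and 6.52, 6.73 and 6.39 irrigated. Its difference of -1.01 ± 0.23 (adjusted p = 0.00835) lay close to the fold threshold. It was not called under any of these 4 scalings or in the 12-array fit, and without RAHS-14 drought plant 1, RAHS-14 drought plant 2 or RAHS-14 irrigated plant 2 it was not called either. The differences with 1 array left out spanned -1.14 to -0.92. It is named to complete the called members, after its values were seen. The other members were the nitrate transporter GhiAffx.4614.1.S1_at at -0.77, the urea transporter Ghi.4613.1.S1_at at -0.50 and the nitrate transporter GhiAffx.58791.1.A1_at, annotated as NTP2, at 0.79.

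Efflux proteins went both ways. TRANSPARENT TESTA 12, Ghi.8579.1.S1_s_at, a MATE protein that loads flavonoids into the vacuole of the Arabidopsis seed coat, read 9.95, 10.17 and 10.06 in RAHS-14 under drought, against 8.95, 8.83 and 8.93 in irrigated RAHS-14. It rose by 1.15 ± 0.11 (adjusted p = 6.92e-05 by limma), with all drought plants above all irrigated plants. An ABC-type ATPase annotated for folic acid, Gra.1672.1.A1_at, read 5.65, 5.29 and 5.50 under drought and 7.23, 7.38 and 7.70 irrigated, and fell by 1.96 ± 0.16 (adjusted p = 3.61e-05). The MATE efflux protein GraAffx.27942.1.S1_at fell by 1.52 ± 0.08 and the ABC-type ATPase Ghi.10559.1.A1_at by 1.44 ± 0.10. The 9 other members of this class had differences of -0.25 to 0.55.

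Cation carriers gave 1 rise and 1 fall in 9 members, against 3.49% and 4.63% of all probe sets tested. With the quantile target of all 12 arrays they gave 0 calls. The calcium:hydrogen antiporter GhiAffx.53145.1.A1_s_at, of a kind that loads calcium into the vacuole in Arabidopsis, read 9.19, 8.82 and 9.08 in RAHS-14 under drought, against 8.02, 7.79 and 7.88 in irrigated RAHS-14. The drought plants were all higher, and the rise was 1.13 ± 0.12 (adjusted p = 0.000159 by limma). The cadmium ion transporter Ghi.9111.1.S1_at read 8.28, 8.35 and 8.32 under drought and 9.37, 9.35 and 9.41 irrigated. It fell by 1.06 ± 0.06 (adjusted p = 4.60e-06), with the groups apart. The other 7, among them zinc, copper, potassium and magnesium carriers, lay between -0.90 and 0.79.

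Among members with no named substance, the bile acid:sodium symporter family protein GhiAffx.2746.1.S1_at, of a family whose Arabidopsis members include plastid envelope carriers, read 4.28, 4.16 and 4.52 in RAHS-14 under drought, against 7.73, 7.07 and 7.60 in irrigated RAHS-14. Its drought plants were all lower, and it fell by 3.15 ± 0.22 (adjusted p = 1.46e-05 by limma). The 4 others lay between -0.07 and 0.98. No dicarboxylate, nucleotide, phosphate, sulfate, boron or proton carrier was called in this comparison. The 3 dicarboxylate carriers differed by -0.36 to 0.12, the 4 nucleotide and nucleobase carriers by -0.86 to 0.60, the 4 carriers of phosphate, sulfate and boron by -0.76 to 0.47 and the 2 proton pumps by -0.13 and 0.09. The subunit of an ATPase complex, grouped with the pumps, differed by 0.70. The 4 tested members that are not carriers by name differed by -0.27 to 0.19.

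**Figure D2:**
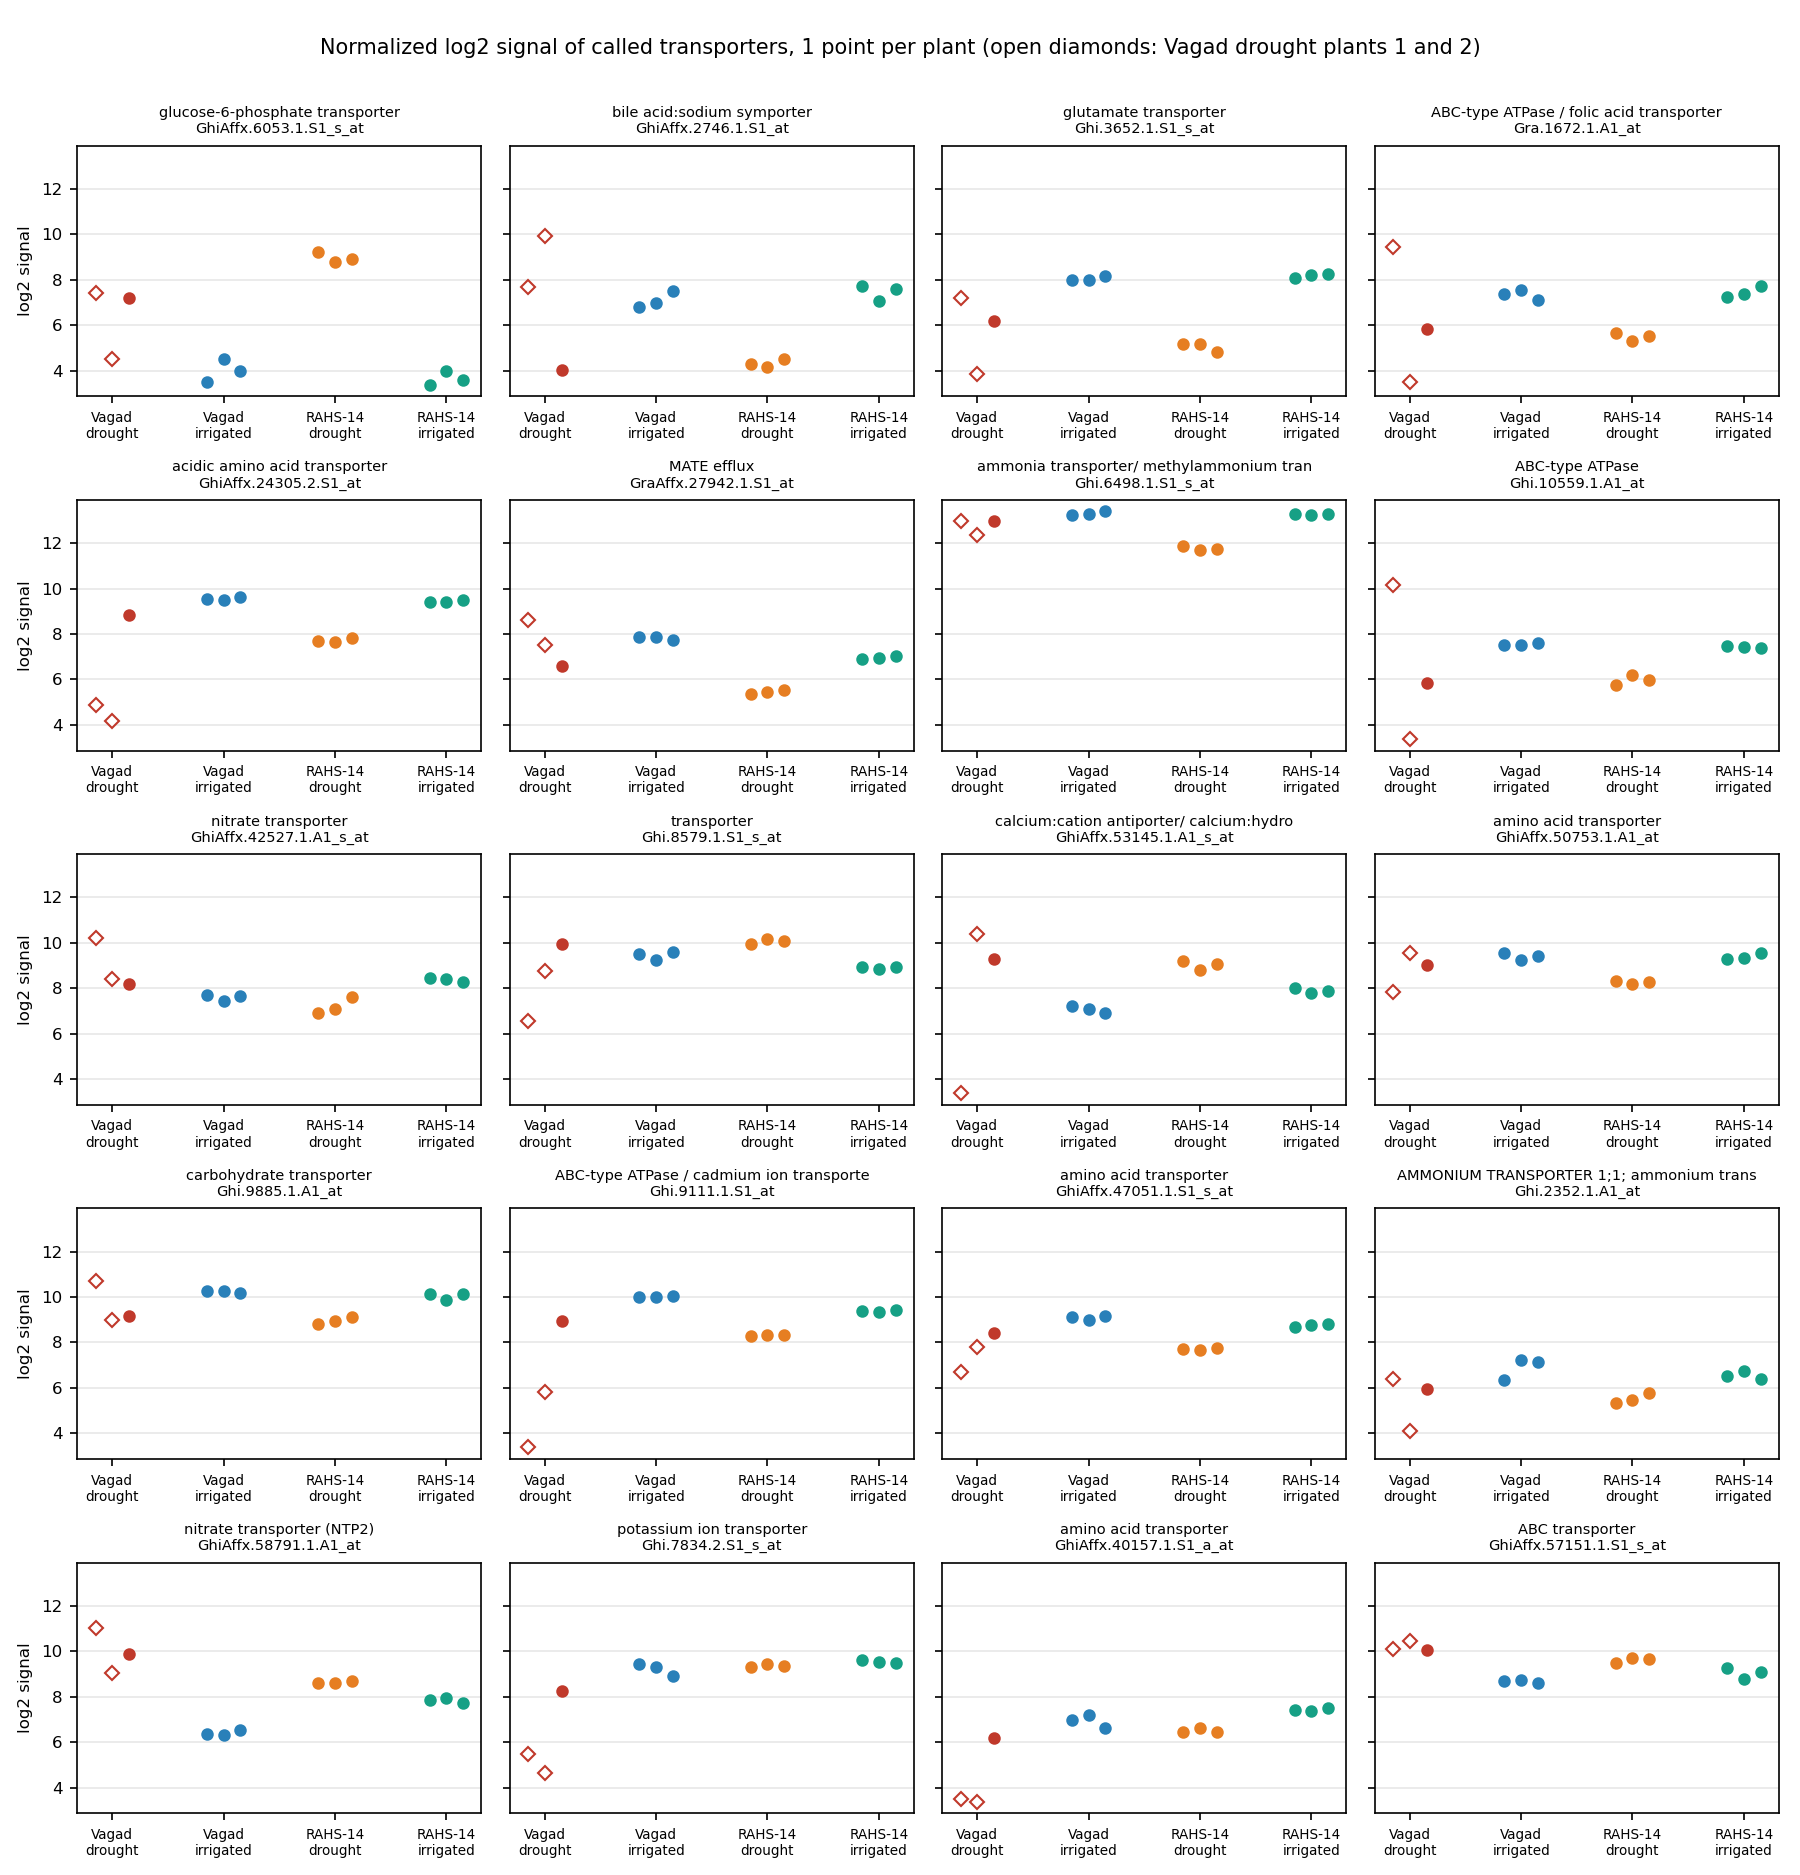
Normalized log2 signal (vertical axis) in each plant of the 20 transporters called for drought against irrigated in either accession, by group along the horizontal axis, with Vagad drought plants 1 and 2 as open diamonds. For the glucose-6-phosphate transporter, the 3 RAHS-14 drought plants sit between 8.76 and 9.22 and the 6 irrigated plants between 3.37 and 4.53.

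In Vagad, drought leaves had higher signal from the nitrate transporter NTP2 and an ABC transporter on all 3 plants. In the 12-array fit, 2 of the 63 members rose, against 1.76% of all probe sets tested, and 2 fell, against 3.04%. All probe sets together had a median log2 difference of -0.70 in this fit, and the members one of -0.94. In the 10-array fit, which rests on plant 3, 4 members rose, against 4.65%, and 7 fell, against 5.74%. Those that rose on plant 3 included the glucose-6-phosphate transporter, which was tested through drought arrays alone, so its rise is a description. The 12-array count depended on single plants: it was 7 without Vagad drought plant 1, 8 without plant 2 and 30 without plant 3. It was 1 when any single irrigated Vagad plant was left out and 2 when any single RAHS-14 plant was.

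The nitrate transporter GhiAffx.58791.1.A1_at, annotated as NTP2, read 9.89 in Vagad drought plant 3 and 11.03 and 9.02 in plants 1 and 2, against 6.35, 6.33 and 6.53 in irrigated Vagad. All 3 drought plants were above all 3 irrigated plants. The difference was 3.58 ± 0.43 in the 12-array fit (adjusted p = 0.00260 by limma) and 3.49 ± 0.13 in the 10-array fit (adjusted p = 2.62e-06). It was called without any 1 of the 12 arrays, at 3.06 to 4.06. In RAHS-14 the same probe set read 8.60, 8.59 and 8.70 under drought, against 7.87, 7.95 and 7.71 irrigated, a difference of 0.79 that did not reach 2-fold.

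The ABC transporter family protein GhiAffx.57151.1.S1_s_at read 10.03 in Vagad drought plant 3 and 10.09 and 10.45 in plants 1 and 2, against 8.69, 8.75 and 8.58 in irrigated Vagad. Its 3 drought plants were close together, unlike those of most members, and above the irrigated plants. It rose by 1.52 ± 0.24 in the 12-array fit (adjusted p = 0.0105 by limma) and by 1.36 ± 0.18 in the 10-array fit (adjusted p = 0.000907). Without any one of the irrigated Vagad plants it was not called in the 12-array fit, and with the arrays aligned at their medians the difference became -0.33.

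The 2 members that fell in the 12-array fit did so through plants 1 and 2. The potassium ion transporter Ghi.7834.2.S1_s_at read 8.25 in Vagad drought plant 3 and 5.49 and 4.65 in plants 1 and 2, against 9.45, 9.32 and 8.89 in irrigated Vagad. Plant 3 was below each irrigated plant, by less than 2-fold from their mean, and plants 1 and 2 were far lower. The amino acid transporter GhiAffx.40157.1.S1_a_at read 6.19 in plant 3 and 3.48 and 3.37 in plants 1 and 2, the last at the floor, against 6.99, 7.19 and 6.62 in irrigated Vagad. In the 12-array fit the differences were -3.09 ± 0.73 and -2.59 ± 0.63 (adjusted p = 0.0442 and 0.0478 by limma). In the 10-array fit they were -0.96 and -0.74 and were not called. With 1 array left out, the potassium transporter was called in 2 of 12 fits and the amino acid transporter in 1.

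On plant 3, the members called in the 10-array fit included several of those called in RAHS-14. The comparisons share the error of the other arrays but no plant, and the overlap of calls over all probe sets is not given here. The glucose-6-phosphate transporter GhiAffx.6053.1.S1_s_at read 7.19 in Vagad drought plant 3 and 7.39 and 4.53 in plants 1 and 2, against 3.50, 4.53 and 3.96 in irrigated Vagad. Plants 3 and 1 were above all irrigated plants, while plant 2 equalled the highest of them. The rise on plant 3 was 3.19 ± 0.37 (adjusted p = 0.000546 by limma), with the reservation given above that this member was tested through drought arrays alone, and the 12-array difference was 2.37 and was not called. The calcium:hydrogen antiporter GhiAffx.53145.1.A1_s_at read 9.28 in plant 3 and 3.37 and 10.38 in plants 1 and 2, against 7.22, 7.10 and 6.92 in irrigated Vagad. Plants 3 and 2 were above the irrigated plants and plant 1 was at the floor, with a rise of 2.20 ± 0.17 on plant 3 (adjusted p = 6.37e-05).

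Falls on plant 3 covered the bile acid:sodium symporter, the glutamate transporter, the same ABC and MATE proteins as in RAHS-14, and the carbohydrate and cadmium carriers. The bile acid:sodium symporter GhiAffx.2746.1.S1_at read 4.01 in Vagad drought plant 3 and 7.68 and 9.93 in plants 1 and 2, against 6.79, 6.99 and 7.51 in irrigated Vagad. Plant 3 was below the irrigated plants and plants 1 and 2 were above them, so the difference was -3.08 in the 10-array fit and 0.11 in the 12-array fit. The glutamate transporter Ghi.3652.1.S1_s_at read 6.17 in plant 3 and 7.20 and 3.87 in plants 1 and 2, against 7.99, 7.97 and 8.18 in irrigated Vagad. All 3 drought plants were lower than the irrigated plants, and it fell by 1.88 ± 0.16 on plant 3 (adjusted p = 0.000102 by limma), where in RAHS-14 it fell by 3.12. The ABC-type ATPases Ghi.10559.1.A1_at and Gra.1672.1.A1_at fell by 1.71 and 1.52 on plant 3, the MATE efflux protein GraAffx.27942.1.S1_at by 1.24, the carbohydrate transporter Ghi.9885.1.A1_at by 1.09 and the cadmium ion transporter Ghi.9111.1.S1_at by 1.06. For these 5, plants 1 and 2 did not both lie on the same side of the irrigated plants as plant 3, except for the cadmium ion transporter, which read 3.41 and 5.80 in plants 1 and 2 and 8.96 in plant 3, against 10.02, 10.01 and 10.03 in irrigated Vagad.

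Of the nitrogen carriers that fell in RAHS-14, only the glutamate transporter fell by at least 2-fold on Vagad drought plant 3. The ammonium transporter Ghi.6498.1.S1_s_at read 12.96 in plant 3 and 12.97 and 12.37 in plants 1 and 2, against 13.25, 13.29 and 13.39 in irrigated Vagad. The 3 drought plants were below the irrigated plants, and the difference was -0.35 in the 10-array fit and -0.54 in the 12-array fit. The acidic amino acid transporter GhiAffx.24305.2.S1_at differed by -0.73 on plant 3, and AMMONIUM TRANSPORTER 1;1 by -0.97. The nitrate transporter GhiAffx.42527.1.A1_s_at went the other way, at 0.59 on plant 3, and all 3 drought plants were above the irrigated plants. Of the 10 amino acid and peptide carriers, 8 had negative differences on plant 3, beside 38 of all 63 members. In 5 of the 63 members every drought plant was on one side of the irrigated mean in Vagad and on the other in RAHS-14, against 8.77% of all probe sets tested. How these accession contrasts differ was not tested, since the lists used accession differences in both conditions.

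**Figure D3:**
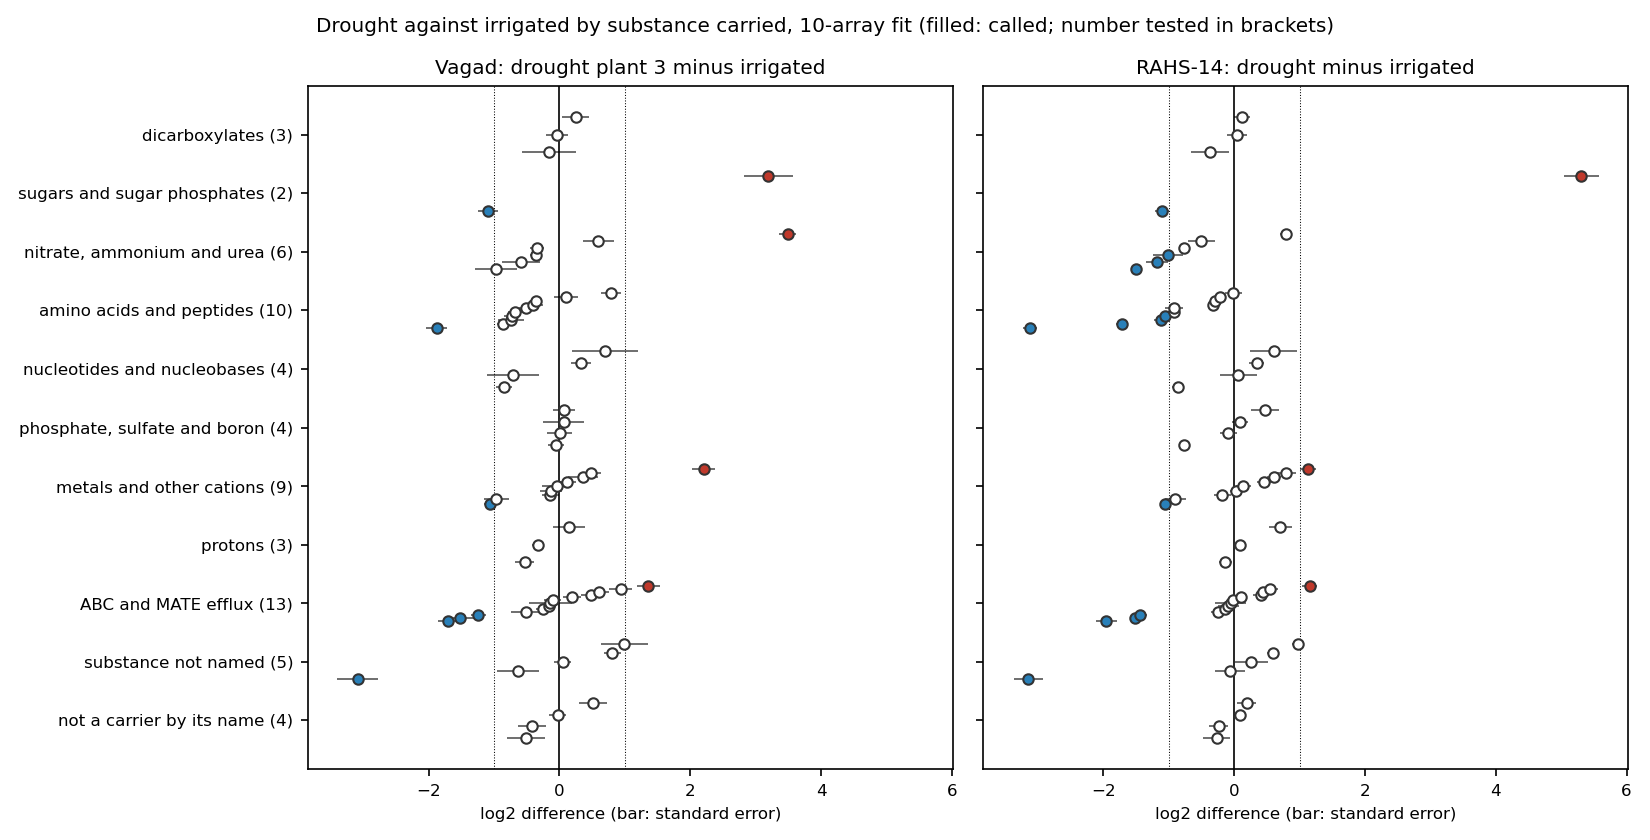
Log2 difference, drought minus irrigated, of each tested transporter (points, with the standard error as a bar) by substance carried, from the 10-array fit: Vagad, where drought is plant 3, on the left and RAHS-14 on the right. Filled points were called and dotted lines mark a 2-fold difference. All 10 amino acid and peptide carriers lie below 0 in RAHS-14 and 8 of them in Vagad plant 3. Of all 63 members, 36 and 38 do.

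Averaged over the accessions with equal weight, which takes no accession difference into account, 3 members rose under drought in the 12-array fit, against 1.3% of all probe sets, and 3 fell, against 2.06%. Those that rose were the glucose-6-phosphate transporter GhiAffx.6053.1.S1_s_at at 3.84 ± 0.47 (adjusted p = 0.00191 by limma), the nitrate transporter NTP2 at 2.18 ± 0.30 (adjusted p = 0.00368) and the ABC transporter GhiAffx.57151.1.S1_s_at at 1.03 ± 0.17 (adjusted p = 0.0101). The first was above the array median on 5 of the 6 drought arrays and on 0 irrigated ones, so its difference is a description, and the other 62 members gave 2 rises. Those that fell were the glutamate transporter Ghi.3652.1.S1_s_at at -2.71 ± 0.47 (adjusted p = 0.0116), the amino acid transporter GhiAffx.47051.1.S1_s_at at -1.25 ± 0.27 (adjusted p = 0.0337) and the ammonium transporter Ghi.6498.1.S1_s_at at -1.02 ± 0.17 (adjusted p = 0.0109). All 10 amino acid and peptide carriers had a negative mean difference in this fit, with a median of -1.02, beside -0.36 for all probe sets tested. Of all 63 members, 43 were negative in it.

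In the 10-array fit, 3 members rose, against 3.01%, and 8 fell, against 3.8%. NTP2 rose in both fits, and the calcium:hydrogen antiporter rose, by 1.67 ± 0.10, in the 10-array fit. The glucose-6-phosphate transporter also rose in both, which is a description because it was tested through drought arrays alone. The glutamate transporter fell in both. The 12-array count of 6 became 13, 10 and 21 without Vagad drought plants 1, 2 and 3. NTP2 and the glutamate transporter were called without any 1 of the 12 arrays. The ammonium transporter was not called without Vagad drought plant 2, Vagad irrigated plant 3 or RAHS-14 drought plant 2, nor the ABC transporter without Vagad drought plant 2 or RAHS-14 irrigated plant 2, and the amino acid transporter GhiAffx.47051.1.S1_s_at was called in 3 of 12 such fits, with values from -1.45 to -1.02.

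The accession difference is given here in the condition that had not put a member on its list. Of the 42 tested members of the irrigated lists, 11 had also been listed for drought plants, so their drought values are a description. The other 31 were kept because the study did not list them as differing in these same drought plants. Few calls among them are therefore partly built in. Their counts are a description too, and the shares over all probe sets are not a like comparison. Under drought, Vagad minus RAHS-14, 0 of the 31 were called in the 12-array fit, against 1.15% higher and 1.54% lower among all probe sets. At an unadjusted p under 0.05 limma gave 6 higher and 5 lower, against 10.3% and 26.8% of all probe sets, and the test named in the methods gave 0 at that p with a 2-fold difference. In the 10-array fit, with plant 3 alone for Vagad, 2 members were higher, against 3.52%, and 2 lower, against 5.14%. The 12-array count became 1, 3 and 14 without Vagad drought plants 1, 2 and 3.

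The members higher on plant 3 were NTP2 and an amino acid carrier. NTP2 read 9.89 in Vagad drought plant 3 and 11.03 and 9.02 in plants 1 and 2, against 8.60, 8.59 and 8.70 in RAHS-14 under drought. All Vagad drought plants were above all RAHS-14 drought plants, by 1.26 ± 0.13 on plant 3 (adjusted p = 0.000465 by limma) and by 1.35 in the 12-array fit (adjusted p = 0.0732). The acidic amino acid transporter GhiAffx.24305.2.S1_at read 8.81 in plant 3 and 4.88 and 4.16 in plants 1 and 2, against 7.68, 7.63 and 7.83 in RAHS-14 under drought. Plant 3 was higher by 1.10 ± 0.11 (adjusted p = 0.000505), while plants 1 and 2 were below the RAHS-14 plants. The lower ones on plant 3 were an ADP transporter, Ghi.4502.1.A1_s_at, at -1.25 ± 0.40 (adjusted p = 0.0489) and the mechanically-gated ion channel GhiAffx.13410.1.S1_at at -1.21 ± 0.32 (adjusted p = 0.0262).

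Of the 32 tested members of the drought lists, 11 had also been listed for irrigated plants. The 21 others were kept because the study did not list them as differing in these same irrigated plants. Few calls among them are again partly built in, so their counts are a description and not a like comparison with all probe sets. In irrigated plants, Vagad minus RAHS-14, 0 of the 21 others were called in the 10-array fit, against 1.86% higher and 1.9% lower among all probe sets. At an unadjusted p under 0.05, 8 were higher and 4 lower by limma, against 17.4% and 17.5% of all probe sets, and the test named in the methods gave 0 with a 2-fold difference. The 12-array fit gave 0 as well, against 0.116% and 0.0699%, and at the unadjusted p it gave 0, against 1.51% and 1.36%. The 21 differed by -0.74 to 0.86, with a median of 0.16. The ends of that range were the copper ion transporter GraAffx.27703.1.S1_s_at, with 8.00, 7.66 and 8.31 in irrigated Vagad against 8.66, 8.90 and 8.64 in irrigated RAHS-14, and the MATE efflux protein GraAffx.27942.1.S1_at, with 7.89, 7.84 and 7.73 against 6.92, 6.96 and 7.01. In each the accessions did not overlap, and the differences were under 2-fold.

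In the conditions that chose the members, the accession differences are values without a test. Among irrigated plants, the 31 tested members listed as higher in Vagad had Vagad minus RAHS-14 differences from -1.44, in NTP2, to 0.56, in the hydrogen antiporter Gra.2681.1.S1_s_at, with a median of -0.09. Of them, 13 were above 0 and 0 were at least 2-fold higher. The 11 listed as higher in RAHS-14 ran from -0.64 to 0.64, with a median of 0.20. Under drought, taking Vagad plant 3, the 18 listed as higher in Vagad ran from -1.77 to 1.43, with a median of 0.07, and the 14 listed as higher in RAHS-14 from -0.60 to 1.45, with a median of 0.32. With all 3 Vagad drought plants, these medians were -0.59 and -0.49, and the extremes were -4.58 and 2.13. The lists were made by the authors from values summarized in another way. Of the 31 members listed as higher in irrigated Vagad, 18 were below 0 here, and the reason for this was not tested.

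Members listed in both conditions were 13, of which 11 were tested. Besides the glucose-6-phosphate, glutamate, cadmium and TRANSPARENT TESTA 12 carriers described above, none was called for drought against irrigated in either fit. The oxoglutarate:malate antiporter GhiAffx.29204.1.S1_s_at, of a kind that exchanges organic acids across the Arabidopsis plastid envelope, read 8.67 in Vagad drought plant 3, 8.90, 8.43 and 8.78 in irrigated Vagad, 8.62, 8.68 and 8.59 in RAHS-14 under drought and 8.53, 8.43 and 8.58 in irrigated RAHS-14. These groups overlapped or nearly touched, and plants 1 and 2 stood above all of them at 9.75 and 10.39. The adenine nucleotide transporter Ghi.4382.1.A1_s_at, which in mitochondria exchanges ATP for ADP, read 10.21 in Vagad drought plant 3, 9.69, 9.89 and 10.06 in irrigated Vagad, 10.21, 10.08 and 10.31 in RAHS-14 under drought and 9.90, 9.78 and 9.90 in irrigated RAHS-14. Plants 1 and 2 read 5.44 and 11.16, one far below and one above the rest. In RAHS-14, drought minus irrigated, the sulfate transporter Ghi.891.1.A1_s_at differed by 0.47, the boron transporter GhiAffx.20514.1.S1_s_at by -0.76, the hydrogen antiporter Gra.2681.1.S1_s_at by 0.98, the transporter-related protein Ghi.6412.1.S1_at by 0.60 and the dicarboxylate transporter Gra.2902.1.A1_s_at by -0.36, all under 2-fold.

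The 9 members left out of the tests were at low signal on most arrays. For 5 of them, Vagad drought plant 1 or 2 was more than 2-fold above every other array. The oligopeptide transporter GhiAffx.8120.1.S1_at read 9.67 and 8.07 in plants 1 and 2, against 5.15 to 6.05 on the other arrays. The phosphate transporter Gra.486.2.S1_at read 3.37 and 10.47, against at most 4.29. The transporter-related protein Gra.557.2.S1_a_at read 7.35 and 11.33, against at most 5.08, and the triose-phosphate transporter GhiAffx.42790.1.S1_at read 7.41 and 3.37, against at most 4.25. An amino acid transporter, GraAffx.16508.1.A1_x_at, read 5.28 and 6.80, against at most 4.69. The part of the arrays' shift in these values was not tested. The other 4 were DICARBOXYLATE TRANSPORTER 1, GhiAffx.30159.1.S1_s_at, a nucleotide transporter, an ABC-type ATPase and an ATP-dependent peptidase.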

How the data were processed

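Expression was measured in leaves of 12 plants, with 1 Affymetrix Cotton Genome array each. The deposited intensity values are linear MAS5 signals that the authors scaled to a trimmed mean of 500.1 on each array, without detection calls. The methods name filtered RMA values and an unadjusted t-test for the study's own comparisons. Groups were taken from the sample titles. The 24029 probe sets other than array controls were quantile normalized to the mean quantiles of the 10 arrays without Vagad drought plants 1 and 2, raised to a floor of 10.3 (the 20th percentile) and log2 transformed. The 12883 probe sets that exceeded the array median on 3 or more arrays were tested. The 4 group means were fitted with limma 3.58.1 in R 4.3.3, and p-values were adjusted by Benjamini-Hochberg over all 12883. A call needed a fold of 2 or more and an adjusted p under 0.05. The 12-array fit was the main one for comparisons that include Vagad under drought, and the 10-array fit for the others. The fit was also run on simulated signals with known changes. These had equal spread on every array and a lower floor, so they do not cover arrays like Vagad drought plants 1 and 2. The rule named members called in either fit, up to 12 a direction, and members listed in both conditions. Tested alternatives were other scalings, offsets, filters, errors and array sets. The members and lists were chosen with earlier results of these data known. The number of arrays limits the precision. Of 18 pairs of arrays with the same replicate number, 0 had residuals correlated above 0.1, so numbers were not treated as pairs. Figures were drawn with matplotlib 3.10.9.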

Additional observations from a re-analysis of the deposited data

Results flagged for a closer look

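Every drought plant was on one side of the irrigated mean in Vagad and on the other in RAHS-14 in 5 of the 63 members. This compares with 8.77% of all probe sets, and the difference between accessions was not tested. In 3 of the 63, all among these 5, the drought and irrigated plants did not overlap in either accession, against 3.76% of all probe sets. For the nitrate transporter GhiAffx.42527.1.A1_s_at, the log2 difference, drought minus irrigated, was 1.34 in Vagad (12 arrays) and -1.18 in RAHS-14, with 8.19 in Vagad drought plant 3 and 10.19 and 8.42 in plants 1 and 2, against 7.68, 7.44 and 7.65 in irrigated Vagad. For the plasma membrane proton pump Ghi.4597.1.S1_at, annotated as Arabidopsis H(+)-ATPase 5, it was -2.68 in Vagad and 0.09 in RAHS-14, and plant 3 alone gave -0.33. For an ABC-type ATPase, Ghi.5565.5.S1_s_at, it was -4.77 in Vagad and 0.44 in RAHS-14. Vagad drought plants 1 and 2 of this probe set were at the floor, and plant 3 alone gave -0.24. The other 2 overlapped in RAHS-14. For the AAA-type ATPase GhiAffx.12228.1.S1_at, which is not a carrier by name, the difference was 1.12 in Vagad and -0.24 in RAHS-14. For the ABC-type ATPase Ghi.5565.2.S1_a_at it was -1.32 in Vagad and 0.11 in RAHS-14, and plant 3 alone gave -0.16. This probe set shares its annotation and the first number of its ID with Ghi.5565.5.S1_s_at. It read 10.74 and 8.91 in Vagad drought plants 1 and 2, against 11.67, 11.69 and 11.81 in irrigated Vagad.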

How the results depend on the processing

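For RAHS-14, drought minus irrigated, the 16 members called became 2 with all 12 arrays, 9 with the quantile target taken from all 12 arrays and 36 with no fold threshold. The test named in the methods gave 16 at an unadjusted p and 16 after Benjamini-Hochberg. Leaving out 1 array gave 15 to 17. For Vagad, drought minus irrigated, the 4 called became 11 with 10 arrays, 0 with the 2 groups alone, 2 with the 12-array target, 39 with arrays aligned at their medians, 14 with the authors' scaling, 8 with an offset of 16 in place of the floor, 2 with no filter, 7 with a trended and robust spread and 0 with array weights. The test named in the methods gave 5 unadjusted and 0 after Benjamini-Hochberg. Leaving out 1 array gave 1 to 30. These scalings moved the median of all probe sets: it was -0.70 in the main setting, -1.84 with aligned medians and -0.23 with the authors' scaling. The split of Vagad calls was 2 higher and 37 lower with aligned medians, and 5 higher and 9 lower with the authors' scaling. Averaged over the accessions, the 6 called became 11 with 10 arrays and 16 by the unadjusted test named in the methods, and 4 to 21 with 1 array left out. For all 42 members of the irrigated lists under drought, the 0 called became 6 with 10 arrays, 14 with aligned medians, 4 with the authors' scaling, 1 with the offset, and 0 to 20 with 1 array left out. For the 31 not listed for drought plants these counts were 4, 11, 3, 0 and 0 to 14. For members of the drought lists in irrigated plants, the 0 called became 11 with no fold threshold (8 among the 21 not listed for irrigated plants) and stayed 0 with each array left out. With the replicate block the 5 counts were 16, 2, 5, 0 and 0. Of 587 values of single members under these settings, over 25 results, 491 were still called, 95 were not, and 1 reversed: the ABC transporter GhiAffx.57151.1.S1_s_at in Vagad, at -0.33 with aligned medians. The cause was not tested. The glucose-6-phosphate transporter has no value with the filter of 6 arrays. Signals at the floor have no order, and Vagad under drought is either 3 plants that differ widely or 1 plant.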
